A study of Mus musculus with 12 samples.

Results

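The genes described here carry out antigen processing for major histocompatibility complex (MHC) class I, and were named as H2-K1, H2-D1, B2m, Tap1, Tap2, Tapbp, Psmb8, Psmb9, Psmb10 and Nlrc5. A gene was measured where the platform annotation tied a probe set to exactly 1 symbol, and the probe set of highest mean was kept. This gave 9 of the 10 named genes, out of 30142 genes in all, each with 1 probe set. Nlrc5, which encodes the transcriptional activator of class I genes, was left out because its probe set listed 3 symbols, and no value is given for it. The H2-D1 probe set carried 2 gene identifiers in the platform annotation, and class I heavy chain genes are close copies of each other, so its values may hold signal of a related gene.

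MHC class I presents short peptides from inside the cell to CD8+ T cells. Proteasomes cut proteins into peptides, and interferon-gamma makes cells swap catalytic subunits for those of the immunoproteasome (Psmb8, Psmb9 and Psmb10). The transporter of Tap1 and Tap2 carries the peptides into the endoplasmic reticulum, where tapasin (Tapbp) bridges it to the empty class I molecule. That molecule is a heavy chain (H2-K1 or H2-D1) bound to beta-2-microglobulin (B2m). Tumour cells can lower this pathway and so escape T cells.

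The 12 tumours came from the pancreas of PKT mice, which develop pancreatic ductal adenocarcinoma through engineered alleles, and each was hybridised to 1 one-colour array (4 groups of 3). The groups were FAP depleted, FAP-TK control with no depletion, aSMA depleted, and aSMA-TK control with no depletion, all on the PKT background. The names stand for fibroblast activation protein (FAP) and for smooth muscle actin of the alpha type (aSMA), both marks of stromal cells. TK is a thymidine kinase that makes cells expressing it sensitive to ganciclovir, and the labels give 50 ug per kg of ganciclovir for every tumour. That treatment text is the same for all 12 tumours and speaks of depletion, while the genotype labels of the 6 controls say that there was none. Whether the controls received the drug is therefore unclear, and the age of the mice is not given. They also do not spell out the alleles of PKT, the promoter fragments that drive the kinase, or the strain, which matters for H2 genes because their sequence differs between strains. In bulk tumours, fewer cells of a type and less RNA per cell cannot be told apart.

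Fap averaged 5.69 ± 0.46 (SD, n = 3) in FAP depleted tumours and 6.80 ± 0.44 in FAP-TK controls, as log2 intensity. Acta2, which encodes aSMA, was at 10.13, 13.86 and 15.28 in the tumours labelled aSMA depleted, against 12.26, 10.85 and 11.12 in aSMA-TK controls. It was not lower as a group, so that group is called by its label. The separation between positive and negative control probe sets was 2.69 in FAP depleted replicate 2. It was 2.97 in FAP-TK control replicate 1 and 2.99 in FAP-TK control replicate 3, and lay between 4.32 and 4.89 on the other 9 arrays. The median of the negative controls, as deposited, ran from 5.46 to 6.49 on FAP line arrays and from 4.46 to 4.88 on aSMA line arrays. Line and any array batch therefore cannot be told apart. Values below are quantile normalized log2 intensities unless said otherwise. The log2 scale was read from the deposited values and is not certain, since the brightest, B2m in the aSMA line among them, exceed what a common array scanner records on that scale.

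Class I genes are known to be switched on through interferon and NF-kB sites, so 5 promoters are shown, of the heavy chains, B2m, a transporter gene and an immunoproteasome gene. Windows of 250 bases before to 50 after a gene start were taken from RefSeq (GRCm38.p6), and 8 of the 10 named genes matched. H2-K1 had 2 windows, of which the first is shown. Motifs searched on both strands were the interferon-stimulated response element (ISRE, GAAA, any 2 bases and GAAA), the gamma-activated site (GAS, TTCNNNGAA), a kB site (GGG, any 2 bases and TTCCC) and the CCAAT box (CCAAT). Capitals mark the ISRE, GAS or kB match. Tap1 has none of them and so no capitals, and CCAAT matches are not marked. H2-K1 lies on the minus strand at chr17:34000298-34000597, H2-D1 on the plus strand at chr17:35262844-35263143, B2m on the plus strand at chr2:122147437-122147736, Tap1 on the plus strand at chr17:34187306-34187605 and Psmb8 on the plus strand at chr17:34197945-34198244.
H2-K1: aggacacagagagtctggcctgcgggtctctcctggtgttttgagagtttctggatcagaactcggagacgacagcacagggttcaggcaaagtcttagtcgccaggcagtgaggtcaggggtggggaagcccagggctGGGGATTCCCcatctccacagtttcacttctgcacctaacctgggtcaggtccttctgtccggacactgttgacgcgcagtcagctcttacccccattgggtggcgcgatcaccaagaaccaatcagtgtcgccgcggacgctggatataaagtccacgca
H2-D1: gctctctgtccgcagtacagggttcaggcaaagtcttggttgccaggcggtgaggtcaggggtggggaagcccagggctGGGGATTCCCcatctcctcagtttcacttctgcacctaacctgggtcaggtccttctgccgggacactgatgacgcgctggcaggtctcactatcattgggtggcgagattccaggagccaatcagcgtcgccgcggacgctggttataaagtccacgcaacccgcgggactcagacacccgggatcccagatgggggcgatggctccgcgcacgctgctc
B2m: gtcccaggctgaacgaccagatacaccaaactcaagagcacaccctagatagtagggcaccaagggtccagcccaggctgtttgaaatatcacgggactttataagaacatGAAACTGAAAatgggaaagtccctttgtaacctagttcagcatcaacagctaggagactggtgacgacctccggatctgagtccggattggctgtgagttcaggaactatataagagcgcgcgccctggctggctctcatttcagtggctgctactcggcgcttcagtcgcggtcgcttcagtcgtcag
Tap1: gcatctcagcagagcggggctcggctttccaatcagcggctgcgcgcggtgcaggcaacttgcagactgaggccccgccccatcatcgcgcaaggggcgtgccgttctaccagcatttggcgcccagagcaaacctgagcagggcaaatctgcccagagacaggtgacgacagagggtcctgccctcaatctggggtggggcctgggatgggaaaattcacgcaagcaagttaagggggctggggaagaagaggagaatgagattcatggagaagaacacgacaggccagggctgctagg
Psmb8: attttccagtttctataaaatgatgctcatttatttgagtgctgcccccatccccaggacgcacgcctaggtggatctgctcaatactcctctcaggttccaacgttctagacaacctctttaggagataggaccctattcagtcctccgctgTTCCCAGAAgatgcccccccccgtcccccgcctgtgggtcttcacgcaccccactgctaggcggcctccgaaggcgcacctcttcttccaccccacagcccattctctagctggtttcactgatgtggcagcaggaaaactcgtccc
The same 10-base kB sequence stands in the H2-K1 and H2-D1 windows, at positions -111 and -171 from the start used for the window. Both H2-K1 windows lie inside the span annotated for the gene, not before it, and the second holds the site at -125. A kB match is found in 1.75% of all 32851 windows. B2m has an ISRE match, as 3.44% of windows do, and Psmb8 a GAS match, as 8.3% do. Of the 8 genes with a window, 2 had a kB match, 1 an ISRE match and 1 a GAS match. Tapbp, Psmb9 and Psmb10, whose windows are not shown, had none of these matches, like Tap1. The promoters shown thus include every gene with such a match. A CCAAT box is in windows of 6 of the 8 genes and in 37.4% of all windows. The Tap1 window shares 275 bases with the window of Psmb9, which runs the other way. The annotated starts of Tap1 and Psmb9 lie 226 bases apart. No match says only that these letters are not in the window, and none of the matches shown overlapped a match of another motif.

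The heavy chain gene H2-K1 (GRCm38.p6 chr17:33996012-34000619) was at 9.63, 8.72 and 9.63 in FAP depleted tumours and at 8.46, 9.72 and 9.03 in FAP-TK controls. It was at 10.14, 10.14 and 9.55 in the tumours labelled aSMA depleted and at 9.65, 10.18 and 10.01 in aSMA-TK controls. Depleted and control tumours overlapped in both lines, and the lowest tumours were those on the low-separation arrays.

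The second heavy chain gene, H2-D1 (chr17:35263094-35267497), stood at 10.86, 9.98 and 10.15 in FAP depleted tumours and at 9.34, 10.90 and 10.23 in FAP-TK controls. For the tumours labelled aSMA depleted the values were 9.75, 10.71 and 10.07, and for aSMA-TK controls 10.00, 11.01 and 10.93. All 4 groups overlapped for this gene, with group means between 10.16 and 10.65.

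B2m (chr2:122147687-122153082), the light chain that every class I heavy chain needs, was at 14.99, 12.54 and 15.50 in FAP depleted tumours and at 14.39, 17.56 and 14.79 in FAP-TK controls. It was at 18.03, 17.39 and 17.01 in the tumours labelled aSMA depleted and at 16.85, 16.45 and 17.67 in aSMA-TK controls. Its spread within groups (pooled SD 1.24) was the widest of the 9 genes. In the FAP line 5 of 6 tumours were below every aSMA line tumour, and only FAP-TK control replicate 2, at 17.56, reached their range.

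**Figure D1:**
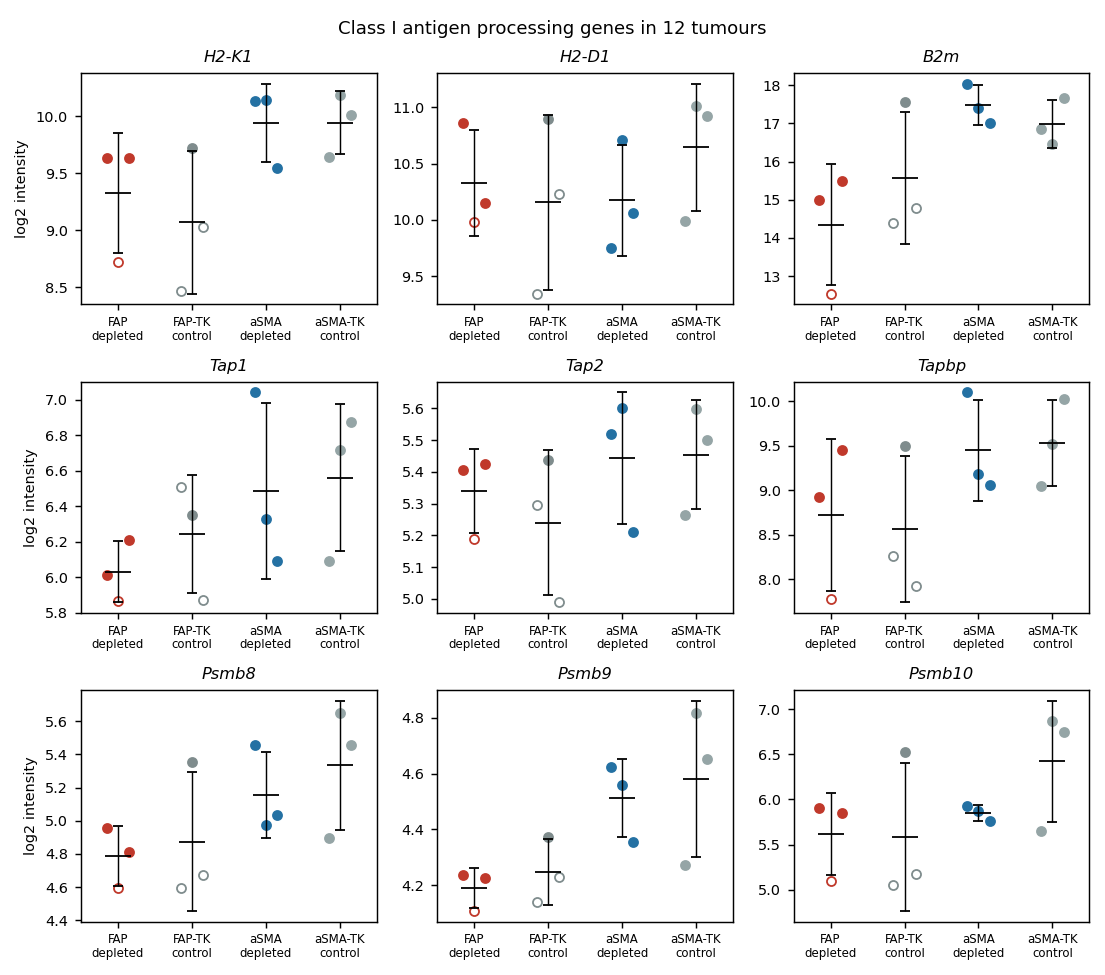
Log2 intensity (vertical axes, 1 scale per gene) of the 9 genes in each tumour by group. Points are tumours, open points are the 3 arrays of low control-probe separation, and bars are the mean and SD of 3 tumours. FAP-TK control replicate 2 is the highest of its group for 8 of the 9 genes. The open points are the 3 lowest tumours for H2-K1, B2m and Tapbp, while for Tap1 the open point at 6.51 is the highest of the FAP line.

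Tap1 (chr17:34187556-34197225), a subunit of the peptide transporter, was at 6.01, 5.87 and 6.21 in FAP depleted tumours and at 6.51, 6.35 and 5.87 in FAP-TK controls. It was at 7.04, 6.33 and 6.09 in the tumours labelled aSMA depleted and at 6.09, 6.71 and 6.87 in aSMA-TK controls. Tap2 (chr17:34204479-34216321), the other subunit, varied least in this step of the pathway, with group means of 5.34 in FAP depleted tumours, 5.24 in FAP-TK controls, 5.44 in the tumours labelled aSMA depleted and 5.45 in aSMA-TK controls (pooled SD 0.19). Both genes overlapped between depleted and control tumours in each line.

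Tapbp (chr17:33919478-33929290), which encodes the loading bridge tapasin, was at 8.92, 7.78 and 9.46 in FAP depleted tumours and at 8.27, 9.50 and 7.93 in FAP-TK controls. In the tumours labelled aSMA depleted it was at 10.10, 9.19 and 9.06, and in aSMA-TK controls at 9.05, 9.52 and 10.03. Like B2m, Tapbp was lowest on the 3 arrays of low separation.

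Psmb8 (chr17:34198195-34201454) encodes an immunoproteasome subunit and averaged 4.79 ± 0.18 (SD, n = 3) in FAP depleted tumours, 4.87 ± 0.42 in FAP-TK controls, 5.16 ± 0.26 in the tumours labelled aSMA depleted and 5.33 ± 0.39 in aSMA-TK controls. Psmb9 (chr17:34182030-34187330), the subunit gene that faces Tap1, was at 4.24, 4.11 and 4.23 in FAP depleted tumours and at 4.14, 4.37 and 4.23 in FAP-TK controls. It was at 4.62, 4.56 and 4.35 in the tumours labelled aSMA depleted and at 4.27, 4.82 and 4.65 in aSMA-TK controls. Every FAP depleted tumour was below every tumour labelled aSMA depleted for Psmb9, while the control groups overlapped.

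Psmb10 (chr8:105935728-105938392), the remaining immunoproteasome subunit, was at 5.91, 5.10 and 5.85 in FAP depleted tumours and at 5.05, 6.53 and 5.18 in FAP-TK controls. In the tumours labelled aSMA depleted it was at 5.93, 5.87 and 5.76, and in aSMA-TK controls at 5.65, 6.87 and 6.74. The tumours labelled aSMA depleted lay together, between aSMA-TK control replicate 1 and the other 2 controls.

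Several of these signals were dim. Set against the 95th percentile of the negative controls of the same array, on the deposited scale, B2m was above it on 12 of 12 arrays, H2-K1 and H2-D1 on 9, Tapbp on 8, and Tap1, Tap2, Psmb8, Psmb9 and Psmb10 on 0. Against the median of the negative controls, Psmb9 was above it on 1 array and Psmb8 on 6, and both Tap2 and Psmb10 on 9. Differences of the dim genes can be understated, so the data bear most on B2m, the heavy chains and Tapbp.

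The first comparison asks whether removing FAP-positive cells changed the pathway. None of the 9 genes passed in FAP depleted against FAP-TK control tumours (limma, adjusted p = 1.00 for each), and 0% of all 30142 genes did. At an unadjusted p under 0.05 there were 0 of 9, against 3.71% of all genes. Of the 9 genes 5 were higher and 4 lower, with a median difference of 0.03, beside 0.04 for all genes, of which 59.9% were higher. None of the 9 had groups that did not overlap, beside 5.6% of all genes higher and 2.5% lower without overlap. H2-K1 differed by 0.26 (95% interval -0.53 to 1.04), H2-D1 by 0.17 (-0.81 to 1.16), Tapbp by 0.16 (-1.02 to 1.33) and Psmb9 by -0.06 (-0.38 to 0.26). The B2m difference was -1.23 (-3.29 to 0.83), and the data allow a wide range for that gene. Without the 3 arrays of low separation, which leaves 1 FAP-TK control, H2-K1 was at -0.088, H2-D1 at -0.39 and Tapbp at -0.31. Tap2 and Psmb10 also turned to below 0, and the signs of B2m, Tap1, Psmb8 and Psmb9 did not turn.

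The same question in the aSMA line gave 0 of 9 genes past the test in the tumours labelled aSMA depleted against aSMA-TK controls (limma, adjusted p from 0.944 to 0.999), and 0% of all genes. At an unadjusted p under 0.05 there were again 0 of 9, against 4.81% of all genes. Of the 9 genes 8 were lower and 1, B2m, was higher, while 46.8% of all genes were lower. The median was -0.07, beside 0.01 for all genes, and the groups overlapped for all 9 (7.43% of all genes were higher and 5.08% lower without overlap). B2m differed by 0.49 (95% interval -1.57 to 2.55), Psmb10 by -0.57 (-1.54 to 0.40), H2-D1 by -0.47 (-1.46 to 0.52) and H2-K1 by -0.0021 (-0.79 to 0.78). Those intervals do not show that the pathway stayed the same. Median centring or the deposited values turned the small differences of H2-K1, Tap1 and Tapbp to above 0, and median centring also that of Tap2.

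**Figure D2:**
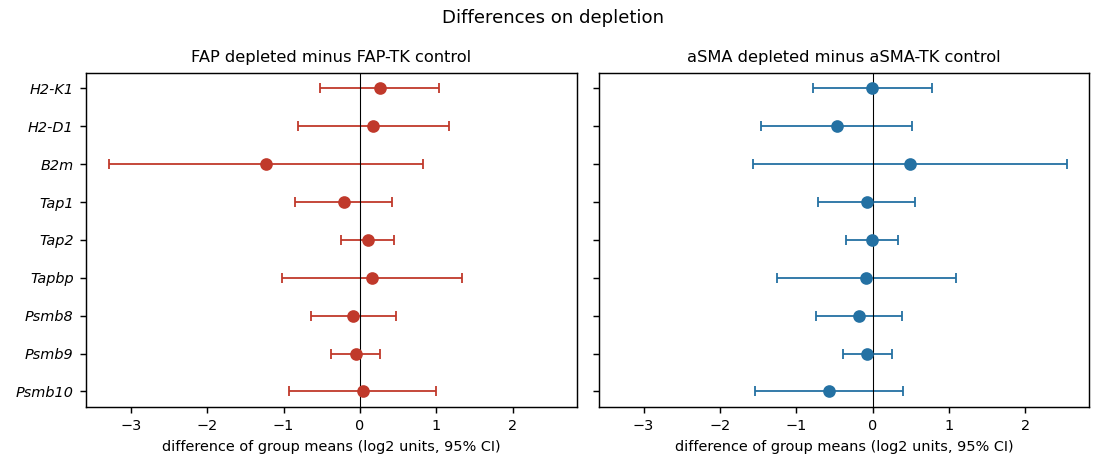
Differences of group means in log2 units (horizontal axis) with 95% confidence intervals from limma for the 9 genes. FAP depleted minus FAP-TK control is on the left and aSMA depleted minus aSMA-TK control on the right. Every interval crosses 0, and that of B2m is the widest in each panel.

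The depletion effects were also set against each other, as the effect in the aSMA line minus that in the FAP line. No gene of the 9 passed (limma, adjusted p from 0.859 to 0.996), as 0% of all genes did and 5.96% had an unadjusted p under 0.05. Of the 9 genes 7 were below 0, as 53.6% of all genes were. B2m was at 1.72 (95% interval -1.19 to 4.64), and the median over the genes was -0.11, beside -0.03 for all genes. A moderated F test for any difference among the 4 groups called 0 of the 9, against 6.68% of all genes, with the smallest adjusted p of 0.141 for B2m. At an unadjusted p under 0.05 there was 1 of 9, against 26% of all genes.

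The lines were then compared. In aSMA-TK controls against FAP-TK controls all 9 genes were higher, with a median of 0.49 beside 0.07 for all genes, of which 58.2% were higher. None passed, against 7.8% of all genes, and at an unadjusted p under 0.05 there were 2, against 28.2% of all genes. None of the 9 was without overlap, beside 21.3% of all genes higher and 13.8% lower without overlap. H2-K1 was at 0.88 ± 0.35 (SE, adjusted p = 0.139) and Psmb9 at 0.33 ± 0.14 (adjusted p = 0.161). In the tumours labelled aSMA depleted against FAP depleted tumours, which share no array with that comparison, 8 of 9 were higher, as 55.2% of all genes were, with a median of 0.37 beside 0.04 for all genes. None passed here either, against 5.18% of all genes, and 2 had an unadjusted p under 0.05, against 24.6%. B2m was at 3.13 ± 0.92 (adjusted p = 0.0791) and Psmb9 at 0.32 ± 0.14 (adjusted p = 0.196). B2m, Psmb8 and Psmb9 did not overlap between those groups, which held in the higher direction for 18.2% of all genes and in the lower for 14.8%.

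With both groups of each line combined, a comparison added after the data were seen, B2m was higher in the aSMA line by 2.27 ± 0.65 (SE, n = 6 per line, adjusted p = 0.0345) and Psmb9 by 0.33 ± 0.10 (adjusted p = 0.0428). These 2 of 9 genes stand beside 22.5% of all genes called, so their count is near the background. H2-K1 was at 0.75 ± 0.25 (adjusted p = 0.0555), Tapbp at 0.85 ± 0.37 (adjusted p = 0.124) and Psmb8 at 0.41 ± 0.18 (adjusted p = 0.118). The remaining genes, H2-D1, Tap1, Tap2 and Psmb10, had differences from 0.16 to 0.53 and did not pass.

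The direction between the lines depended on scaling and, for some genes, on 3 arrays, as did the size of the differences. Without the 3 arrays of low separation 7 of the 9 genes, all but H2-D1 and Psmb10, were still higher in the aSMA line. The median of the 9 was then 0.15, against 0.41 in the fit reported. Between the controls alone, where 1 FAP-TK control is then left, B2m turned to -0.57. On the deposited values the median difference of all genes was -0.43, and 3 of the 9 genes were higher in the aSMA line. There B2m stayed at 2.30 ± 0.56 (adjusted p = 0.00555), Psmb9 turned to -0.19 ± 0.09 (adjusted p = 0.0789), and Tap2, at -0.57 ± 0.08, was called lower (adjusted p = 0.000287). Psmb9 was above the median of all genes there and Tap2 below it. Without the 3 arrays of low separation B2m was at 0.83 ± 0.34 (adjusted p = 0.165) and Psmb9 at 0.24 ± 0.14 (adjusted p = 0.292). None of the 9 was then called, against 8.8% of all genes.

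**Figure D3:**
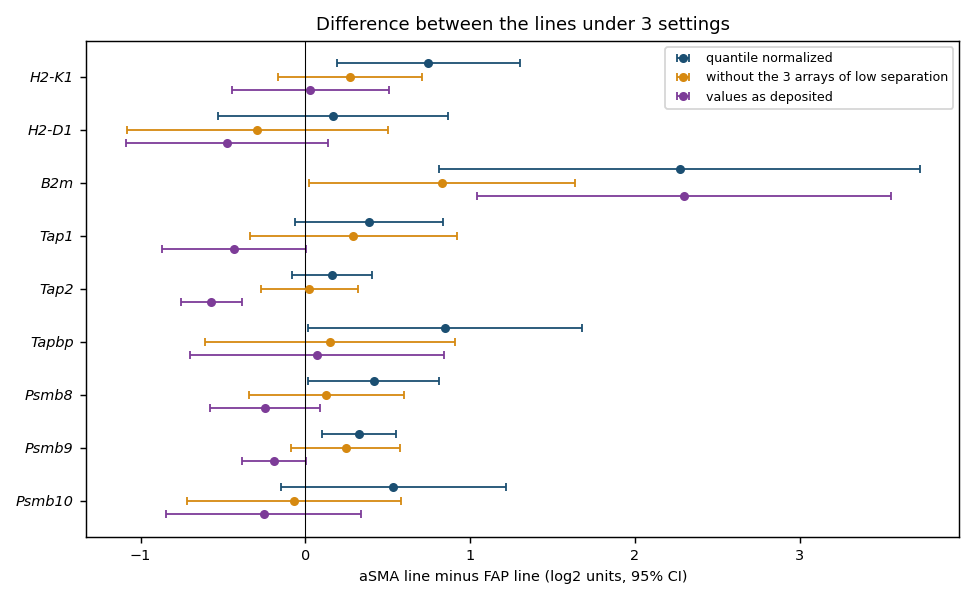
Difference between the aSMA line and the FAP line in log2 units (horizontal axis) with 95% confidence intervals, for the 9 genes. Each gene is shown quantile normalized, without the 3 arrays of low separation, and as deposited. B2m lies above 0 in all 3 settings, at 2.27, 0.83 and 2.30, while Psmb9 lies below 0 as deposited.

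The mean of the 9 genes was lowest on the arrays of low separation. This mean was 7.88, 7.10 and 7.92 in FAP depleted tumours and 7.34, 8.41 and 7.43 in FAP-TK controls. It was 8.51, 8.31 and 8.01 in the tumours labelled aSMA depleted and 7.97, 8.53 and 8.65 in aSMA-TK controls. In the FAP line the 3 arrays of low separation held the 3 lowest means, from 7.10 to 7.43, and the other 3 were between 7.88 and 8.41. FAP depleted replicate 2 was the lowest of its group for 9 of 9 genes. In the aSMA line no array had low separation, and yet aSMA-TK control replicate 1 was lowest of its group for 8 of 9 genes.

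**Figure D4:**
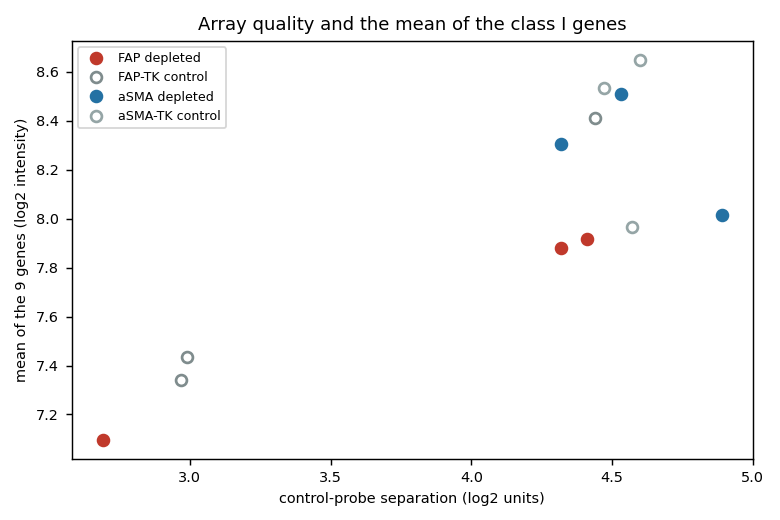
Mean log2 intensity of the 9 genes (vertical axis) against the separation of control probe sets in log2 units (horizontal axis), 1 point per tumour. The 3 tumours with separation under 4 have means from 7.10 to 7.43, and the other 9 have means from 7.88 to 8.65.

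The deviations of the 9 genes from their group means, over 12 arrays, had positive correlations for 36 of 36 pairs. The median r was 0.71, the lowest 0.01 for H2-D1 with Tap1 and the highest 0.92 for Psmb8 with Psmb10. B2m with Tapbp had 0.91, and the neighbours Tap1 and Psmb9 had 0.65. These values are a description, since the genes share the arrays and their quality.

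Other class I heavy chains, which include the non-classical presenters, had 11 of 16 listed genes measured. In FAP depleted tumours 7 were higher and in the tumours labelled aSMA depleted 6, with 0 called in either. Mr1, which presents vitamin metabolites, was at -0.61 ± 0.88 (SE) on FAP depletion and at 1.75 ± 0.88 in the tumours labelled aSMA depleted (adjusted p = 0.944). H2-Q2 was at 0.14 ± 0.16 on FAP depletion, and H2-M2 at 0.31 ± 0.18 in the aSMA line.

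Genes for trimming and loading peptides in the endoplasmic reticulum were higher in 7 of 7 measured cases on FAP depletion (median 0.24) and lower in 5 of 7 in the tumours labelled aSMA depleted (median -0.20), with 0 called. Tapbpl, a tapasin relative that edits peptides, was at 0.56 ± 0.32 on FAP depletion and -0.30 ± 0.32 in the aSMA line. Uggt1, a glycoprotein folding sensor, was at 0.40 ± 0.29 and at -0.40 ± 0.29 in the same comparisons. Between the lines 7 of 7 were higher in the aSMA line and 4 were called, beside 22.5% of all genes, among them the trimming peptidase gene Erap1 at 1.11 ± 0.27 (adjusted p = 0.0188). Calr, the gene of the chaperone calreticulin, was at 1.16 ± 0.36 (adjusted p = 0.0426). With median centring 7 of 7 were higher and 4 called. On the deposited values 5 of 7 were higher and 0 called, beside 60.9% of all genes. With separation as a covariate 6 of 7 were higher and 0 called, beside 9.51% of all genes. Without the 3 arrays of low separation 6 of 7 were higher, with a median of 0.29.

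The constitutive proteasome core, whose catalytic subunits the immunoproteasome replaces, had 6 of 13 genes higher in the aSMA line. Of the 13, 0 were called higher and 1 lower, beside 22.5% of all genes called. Of all 30142 genes 2773 were called lower. Without the 3 arrays of low separation, which leaves FAP-TK control with 1 array, 13 of 13 were lower in the aSMA line. Their median was then -0.54, beside -0.02 for all genes. On FAP depletion 8 of 13 were higher, with Psma3 at -0.51 ± 0.29 and Psmb7, the subunit that Psmb10 replaces, at 0.51 ± 0.38. Against aSMA-TK controls 5 of 13 were higher in the tumours labelled aSMA depleted, with Psma2 at 0.32 ± 0.39 and Psma6 at 0.21 ± 0.31. None of the 13 was called on depletion.

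Of the proteasome activator and assembly genes 4 of 5 were measured, and 0 were called on depletion. Psme1, a subunit of the interferon-induced activator, was at 0.30 ± 0.38 on FAP depletion and -0.14 ± 0.38 in the tumours labelled aSMA depleted. Pomp, the assembly chaperone, was at -0.27 ± 0.52 and at -0.29 ± 0.52. Between the lines 2 of the 4 were higher in the aSMA line, and Psme1 was called, at 0.93 ± 0.27 (limma, adjusted p = 0.0345), beside 22.5% of all genes. With median centring, on the deposited values or with separation as a covariate, 0 of the 4 were called higher.

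Transcriptional regulators of class I had 13 of 15 listed genes measured, with 0 called on depletion. Irf2, an interferon regulatory factor, was at 0.93 ± 0.27 on FAP depletion (adjusted p = 1.00), and Stat2, which relays type I interferon, at -0.43 ± 0.31. In the tumours labelled aSMA depleted Stat2 was at -0.77 ± 0.31 (adjusted p = 0.944) and Nfyb, a CCAAT-binding subunit, at -0.28 ± 0.14. Of the interferon-gamma signal genes, Ifngr1, the ligand-binding receptor chain, was at 0.34 ± 0.43 on FAP depletion and 0.77 ± 0.43 in the tumours labelled aSMA depleted. Jak1, its kinase, was at 0.23 ± 0.36 on FAP depletion. Ifng itself was at 0.26 ± 0.09 in the tumours labelled aSMA depleted (adjusted p = 0.944), with levels between 3.28 and 3.76 on all arrays, near the bottom of the scale.

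Other targets of interferon-gamma were higher in the aSMA line for 9 of 9 genes, with a median of 0.90 and 4 called, beside a median of 0.06 and 22.5% called for all genes. Of these the guanylate-binding protein gene Gbp3 was at 1.02 ± 0.20 (adjusted p = 0.00835) and the GTPase gene Igtp at 1.57 ± 0.34 (adjusted p = 0.0120). These signals were mostly dim, and 0 of the 9 targets passed the filter on dim genes. Over all arrays the called genes Gbp3 and Igtp ran from 4.55 to 6.59 and from 4.33 to 7.71. Cxcl10 and Ubd, also called, ran from 3.17 to 4.04 and from 3.22 to 4.45. Without the 3 arrays of low separation 8 of 9 were higher, with a median of 0.62 beside -0.02 for all genes. With separation as a covariate 9 of 9 were higher and 1 was called, beside 9.51% of all genes. On the deposited values 7 were higher and 2 called higher, beside 60.9% of all genes called and 2.57% called higher. In the tumours labelled aSMA depleted 8 of 9 targets were lower than in aSMA-TK controls, as 46.8% of all genes were. The median of the targets was -0.64, with 0 called.

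Those controls were split for several targets. Gbp2, another guanylate-binding protein gene, was at 7.32, 8.08 and 6.82 in the tumours labelled aSMA depleted, against 7.24, 9.88 and 10.25 in aSMA-TK controls, a difference of -1.72 ± 0.75 (adjusted p = 0.944). Ido1, which encodes a tryptophan-degrading enzyme, was at 4.08, 4.02 and 3.90 against 3.91, 5.12 and 5.38 in the same groups, a difference of -0.80 ± 0.31 (adjusted p = 0.944). In both genes aSMA-TK control replicate 1 was within the range of the depleted tumours, and the other 2 controls were above it. On FAP depletion Ido1 was at 0.37 ± 0.31 and Cd274, which encodes the checkpoint ligand PD-L1, at -0.40 ± 0.71.

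**Figure D5:**
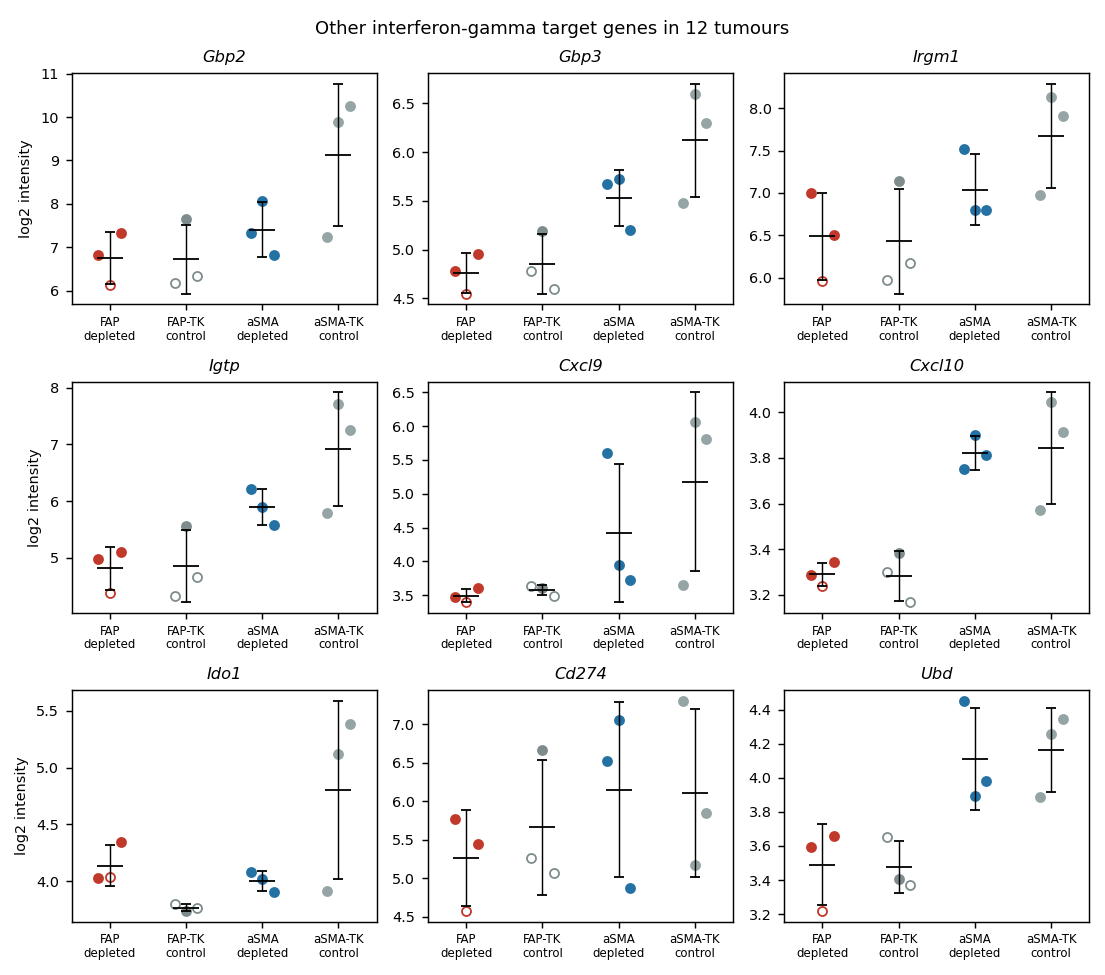
Log2 intensity (vertical axes, 1 scale per gene) of 9 further interferon-gamma targets in each tumour by group, with open points for the arrays of low separation and bars for mean and SD of 3 tumours. Gbp2 reaches 9.88 and 10.25 in aSMA-TK control replicates 2 and 3, and 7.24 in replicate 1.

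Cell type markers were set beside this comparison of the lines, in which 22.5% of all genes were called and 13.3% called higher. Antigen-presenting markers (8 measured, mean log2 level from 4.88 to 5.71 in the tumours labelled aSMA depleted and 5.05 to 5.40 in aSMA-TK controls, against 4.27 to 4.64 in FAP depleted tumours and 4.33 to 5.02 in FAP-TK controls) were higher in the aSMA line for 7 of 8, with 5 called. Leukocyte markers were higher for 5 of 5 with 1 called, a share near that of all genes, and B cell markers for 3 of 3 with 1 called. These signals were mostly dim. The filter on dim genes was passed by 0 of 8 antigen-presenting, 0 of 3 B cell and 1 of 5 leukocyte markers. Cytotoxic T and NK markers were higher for 5 of 10, with 0 called higher and 1, Prf1, called lower. The leukocyte mean ran from 7.88 to 9.22 in the tumours labelled aSMA depleted and from 7.49 to 8.12 in aSMA-TK controls, against 5.89 to 7.96 in FAP depleted tumours and 6.13 to 8.77 in FAP-TK controls. The B cell mean ran from 4.19 to 5.37 in the tumours labelled aSMA depleted and from 4.15 to 4.52 in aSMA-TK controls, against 3.91 to 3.99 in FAP depleted tumours and 3.82 to 3.95 in FAP-TK controls. Without the 3 arrays of low separation 1 antigen-presenting marker, 1 B cell marker and 0 leukocyte markers were called. Macrophage markers were higher in the aSMA line for 6 of 7 with 0 called, and for 1 of 7 without those arrays. Neutrophil markers were higher for 4 of 4 and endothelial markers for 5 of 5, with 0 called in either, and acinar markers for 5 of 5 with 1 called, again near the share of all genes. On the deposited values 60.9% of all genes were called between the lines, and 2.57% called higher. Antigen-presenting markers were there higher for 5 of 8, with 0 called higher and 3 called lower. Leukocyte and endothelial markers were higher for 2 of 5 each, macrophage markers for 1 of 7 and B cell markers for 2 of 3. Neutrophil markers were higher for 2 of 4, acinar markers for 5 of 5, and cytotoxic T and NK markers for 0 of 10. The part of these cells in the difference of B2m and Psmb9 between the lines was not tested.

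Markers of cytotoxic T and NK cells, the cells that read class I, had mean levels from 3.70 to 4.23 on all 12 arrays, and 0 of their 10 genes passed the filter on dim genes. In the tumours labelled aSMA depleted 5 of the 10 were higher and 5 lower, with a median of 0.03 and 0 called, and on FAP depletion 3 were higher and 7 lower, with 0 called. Cd3e, which encodes a chain of the T cell receptor complex, in the tumours labelled aSMA depleted was at 0.99 ± 0.33 (adjusted p = 0.944) and Cd8b1 at 0.55 ± 0.30. On FAP depletion Ncr1 was at 0.11 ± 0.08 and Klrk1, an NK receptor gene, at -0.08 ± 0.09. Ductal epithelial markers, bright on every array (mean level from 14.07 to 16.58), had higher values on FAP depletion for 6 of 6 (median 0.98, 0 called). Of all genes 59.9% were higher there. The ductal mean was 16.17, 14.70 and 16.58 in FAP depleted tumours and 15.04, 15.55 and 14.07 in FAP-TK controls. Its lowest values were on the arrays of low separation, FAP depleted replicate 2 and FAP-TK control replicates 1 and 3. Fibroblast markers had lower values on FAP depletion for 5 of 5 (median -0.92, 0 called). Their mean was 10.51, 8.05 and 10.69 in FAP depleted tumours and 9.65, 11.11 and 11.09 in FAP-TK controls. The lowest, 8.05, was FAP depleted replicate 2, the array of lowest separation. In the tumours labelled aSMA depleted fibroblast markers had higher values for 5 of 5 (median 0.51, 0 called), while 46.8% of all genes were lower.

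The genes outside the pathway whose deviations from the group means were most like those of the 9-gene mean, over 12 arrays, were Sh3bp2 (r = 0.98), Arpc5 (r = 0.98), Arhgap22 (r = 0.97), Bad (r = 0.97) and Itfg1 (r = 0.97). The least alike were Speer9-ps1 (r = -0.96), Mir669b (r = -0.96), Mir378c (r = -0.94), Olfr383-ps1 (r = -0.92) and Mir3471-1 (r = -0.92). Itfg1, for example, was at 11.75, 10.70 and 11.55 in FAP depleted tumours and at 10.47, 11.85 and 10.68 in FAP-TK controls, with its 3 lowest tumours on the arrays of low separation.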

How the data were processed

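The deposited table holds log2 intensities, as the authors processed them, for 72688 probe sets on 12 arrays. The scale was read from the values, which ran from 1.64 to 19.93. The top of this range, where B2m lies, is above what a common array scanner records on a log2 scale. The labels' protocol also names a labelling kit for another maker's arrays than the form of the probe set names, so the scale is not certain. How the authors corrected, summarized and scaled the signals is not stated in the labels. Their processing notes list limma with no version. Since the scale is not certain, differences are not converted to folds.

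After 6732 control probe sets were left out, 65956 were quantile normalized, because array medians differed between lines. Symbols were updated through the RefSeq table of GRCm38.p6. The highest-mean probe set per gene left 30142 genes. A mean per group was fitted over 12 arrays with limma 3.58.1 (R 4.3.3), with moderated two-sided tests and Benjamini-Hochberg adjustment over all genes at 0.05, and checked on simulated data. All members are named, with, for each other list, the 2 genes of smallest p per depletion comparison, and the 5 genes most and least like the member mean (clone names left out). Other genes named between the lines were chosen after their values were seen. The dim filter was a mean above the averaged 95th percentile of negative controls (9.42, deposited log2). Members, lists and alternatives were chosen with earlier results of these data known. The labels give each array a mouse of its own, and the number of arrays limits the precision.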

Additional observations from a re-analysis of the deposited data

How the results depend on the processing

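No depletion comparison called any of the 9 genes under any alternative run. The number of genes called on FAP depletion was 13 without the arrays of low separation against 0 in the fit reported, and ran from 0 to 4 when each replicate was left out. It ran likewise from 0 to 16 for the tumours labelled aSMA depleted and from 0 to 1 for the difference between the effects. Leaving out the arrays of low separation leaves FAP-TK control with 1 array, whose spread is assumed to be like that of the other groups. Between the controls, genes called were 5104 at an adjusted p of 0.1, 5769 with median centring, 12443 on deposited values, 0 with the dim filter, 1543 with the offset, 6658 with array weights, 1012 with separation as a covariate, 357 without the arrays of low separation, 212 with only the groups compared, and 508 to 3130 with a replicate left out. Members called there were 1 on deposited values and 2 with weights, and their mean difference was 0.0039 on deposited values, 0.0992 with the covariate and -0.0289 without the arrays of low separation. Between the depleted groups, genes called were 3501, 3391, 14287, 22 and 4502 at 0.1, with centring, on deposited values, with the dim filter and with weights, 634 without the arrays of low separation, 1 with only the groups compared, and 374 to 1874 with a replicate left out. Members called there were 1 at 0.1, 1 with centring, 2 on deposited values, 1 with weights and 0 to 1 with a replicate left out, where B2m passed without FAP-TK control replicate 2 (limma, adjusted p = 0.0379). Their mean difference was 0.045 on deposited values and 1.20 with the dim filter, which keeps 3 members. The F test called 4161, 4998, 14286, 18, 7235, 536 and 515 genes at 0.1, with centring, on deposited values, with the dim filter, with weights, with the covariate and without the arrays of low separation, and 871 to 2477 with a replicate left out. Its members called were 1, 2 and 1 with centring, deposited values and weights, and 0 to 1 with a replicate left out. Between the lines genes called were 10570, 18349, 2867, 10574 and 2653 with centring, deposited values, covariate, weights and without the arrays of low separation, and members called 0 with the covariate, 4 with weights and 0 without those arrays. With median centring, differences turned sign on FAP depletion for Psmb10 (-0.042), and in the tumours labelled aSMA depleted against their controls for H2-K1 (0.17), Tap1 (0.088), Tap2 (0.063) and Tapbp (0.11), and between the controls for Tap1 (-0.16) and Tap2 (-0.091), and between the depleted groups for Tap2 (-0.072), and between the lines for Tap2 (-0.082). With the deposited values, differences turned sign on FAP depletion for Psmb10 (-0.041), and in the tumours labelled aSMA depleted against their controls for H2-K1 (0.095), Tap1 (0.0098) and Tapbp (0.037), and between the controls for H2-D1 (-0.26), Tap1 (-0.60), Tap2 (-0.54), Psmb8 (-0.22), Psmb9 (-0.16) and Psmb10 (-0.018), and between the depleted groups for H2-K1 (-0.0040), Tap1 (-0.26), Tap2 (-0.60), Psmb8 (-0.27), Psmb9 (-0.22) and Psmb10 (-0.49), and between the lines for H2-D1 (-0.48), Tap1 (-0.43), Tap2 (-0.57), Psmb8 (-0.25), Psmb9 (-0.19) and Psmb10 (-0.25). With an offset of 50, differences turned sign on FAP depletion for Psmb10 (-0.0082). With array weights, differences turned sign on FAP depletion for Tap1 (0.0065) and Psmb8 (0.14), and in the tumours labelled aSMA depleted against their controls for H2-K1 (0.027) and Tap2 (0.021). With separation as a covariate, differences turned sign on FAP depletion for Tapbp (-0.13) and Psmb10 (-0.18), and between the controls for B2m (-0.42), and between the depleted groups for Psmb10 (-0.25), and between the lines for H2-D1 (-0.22) and Psmb10 (-0.047). Without the arrays of low separation, differences turned sign on FAP depletion for H2-K1 (-0.088), H2-D1 (-0.39), Tap2 (-0.021), Tapbp (-0.31) and Psmb10 (-0.65), and between the controls for H2-D1 (-0.25), B2m (-0.57), Psmb8 (-0.021) and Psmb10 (-0.11), and between the depleted groups for Psmb10 (-0.029), and between the lines for H2-D1 (-0.29) and Psmb10 (-0.069). With a replicate left out, signs turned on FAP depletion for H2-K1 (-0.045 to 0.58), H2-D1 (-0.23 to 0.54), Tap2 (-0.027 to 0.20), Tapbp (-0.21 to 0.63), Psmb8 (-0.23 to 0.16), Psmb9 (-0.11 to 0.0044) and Psmb10 (-0.23 to 0.51), and in the tumours labelled aSMA depleted against their controls for H2-K1 (-0.15 to 0.20), Tap1 (-0.35 to 0.12), Tap2 (-0.11 to 0.11), Tapbp (-0.41 to 0.17) and Psmb9 (-0.22 to 0.051), and between the depleted groups for H2-D1 (-0.42 to 0.11) and Psmb10 (-0.029 to 0.38). No paired analysis was possible because the labels give no pairing of tumours between the groups. The cause of these changes was not tested, and signal near the negative controls limits Tap1, Tap2 and the immunoproteasome genes.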
